A study of Mus musculus with 69 samples.

Results

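The behaviour of 9 long noncoding RNAs was examined in newly made RNA of the kidney collecting duct: Malat1, Neat1, Kcnq1ot1, Meg3, Rian, Mirg, Gas5, Snhg1 and Snhg12. They were chosen by symbol, and all 9 have a row among the 24411 gene symbols of the count table and entered the tests of 21175 genes. The 69 RNA-Seq libraries came from mice that carried a Uprt allele opened by Cre (UPRTf/+) and either Hoxb7Cre or Atp6b1v1Cre, so that cells of the Cre domain built 4-thiouracil (4-TU) into the RNA they transcribed. Every mouse, controls included, received 4-TU (430 mg/kg) 4 hours before the kidney was taken, and the tagged RNA was biotinylated and pulled down. Pulldowns of control mice numbered 10 with Hoxb7Cre and 11 with Atp6b1v1Cre. After ischemia (labelled iAKI, clamping of both renal arteries) there were 7 Hoxb7 and 6 Atp6b1v1 pulldowns, and after volume depletion (labelled vAKI, restricted water and food) there were 7 and 7. A further 21 libraries held total kidney RNA of control mice of both genotypes, which was not pulled down and so holds tagged and untagged RNA (its label is Untagged). Mice were female or male and 5.5 months old, except for 10 control libraries of 3-month mice. The labels spell the second driver Atp6b1v1Cre, and that spelling is kept here.

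Hoxb7Cre opens Uprt in the collecting duct system and Atp6b1v1Cre in a narrower set rich in intercalated cells, and descendants of those cells keep the opened allele. Principal cell markers were higher in Hoxb7 pulldowns than in total RNA (6 of 7 rose and 1 fell) and intercalated cell markers in Atp6b1v1 pulldowns (5 of 7 rose and 1 fell). Summed proximal tubule markers, at a median of 43360 CPM (counts scaled to the library total with TMM factors) in total RNA, were at 3481 and 4132 CPM in the Hoxb7 and Atp6b1v1 control pulldowns. Libraries held 12618062 to 30305464 counts (median 20868430). The labels do not say that each library is a separate mouse, so p-values measure the spread between libraries. In order of library number, control pulldowns and total RNA libraries run through the same genotypes, sexes and ages. They may therefore share kidneys, but all fits treated them as independent.

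Malat1 is an abundant RNA of nuclear speckles, and Neat1 is the scaffold of paraspeckles. Meg3, Rian and Mirg are transcribed from the maternal chromosome of the imprinted Dlk1-Dio3 locus and carry microRNAs and small nucleolar RNAs (snoRNAs) within them. Kcnq1ot1 is made from the paternal chromosome, antisense to Kcnq1, and silences neighbouring genes there. Gas5, Snhg1 and Snhg12 host snoRNAs in their introns, and their spliced RNAs, whose reading frames end early, are known targets of nonsense-mediated decay and turn over fast. RNA captured after a short labeling holds a larger share of such unstable RNAs than total RNA does, which is the question put to these 9 RNAs here.

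The start regions of the 3 snoRNA hosts and of Meg3 are shown because the hosts moved together in the pulldowns and Meg3 moved apart from them (RefSeq, GRCm38.p6, plus strand, 100 bases before and 50 after the listed start). They lie at chr1:161035066-161035215 (Gas5, the downstream of its 2 listed starts), chr19:8723387-8723536 (Snhg1), chr4:132308578-132308727 (Snhg12) and chr12:109540896-109541045 (Meg3, the upstream of its 2 listed starts). Capitals mark TGACG, the core of the cyclic AMP response element, the alternating run TATATA, and the TATA box in the form TATAAA, on either strand.
Gas5: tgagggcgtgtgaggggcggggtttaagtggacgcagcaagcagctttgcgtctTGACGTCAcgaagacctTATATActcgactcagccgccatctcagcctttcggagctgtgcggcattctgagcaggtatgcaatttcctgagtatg
Snhg1: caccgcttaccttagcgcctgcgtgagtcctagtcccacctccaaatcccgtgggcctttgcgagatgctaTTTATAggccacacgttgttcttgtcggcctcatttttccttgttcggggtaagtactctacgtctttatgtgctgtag
Snhg12: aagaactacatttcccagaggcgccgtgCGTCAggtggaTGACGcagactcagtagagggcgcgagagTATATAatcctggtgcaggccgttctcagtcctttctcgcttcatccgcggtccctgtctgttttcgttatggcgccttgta
Meg3: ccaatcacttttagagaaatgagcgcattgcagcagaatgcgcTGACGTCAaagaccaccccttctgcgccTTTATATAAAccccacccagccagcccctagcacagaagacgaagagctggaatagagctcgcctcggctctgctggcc
The full cyclic AMP response element, TGACGTCA, was present in the windows of Gas5 and Meg3 and in 1.79% of 32851 promoter windows. The windows searched were longer than those shown, with 300 bases (250 before and 50 after the start), and all listed starts of a gene were searched. Its core TGACG, which the full element contains, was present for 5 of the 8 RNAs with a window (Gas5, Kcnq1ot1, Malat1, Meg3 and Snhg12) and in 20.8% of all windows. TATATA was present for Gas5, Meg3 and Snhg12 (5.67% of all) and TATAAA for Meg3 and Snhg1 (13.6% of all). CCTTTC, a pyrimidine run, was present for Gas5, Snhg12 and, before the other listed start that is not shown, Meg3 (23.8% of all), while TGATGNAA and CACGTG were present for none of the 8 (3.97% and 7.15% of all). Both strands were searched, the motifs were chosen after the windows were read, and a match is a description, not a site.

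The RNAs spanned several orders of abundance. They were set beside one another as CPM per kilobase of exon. This scale corrects for exon length but not for how much of each RNA poly(A) selection keeps, so the order is approximate. The medians over the 21 total RNA libraries were 323 for Malat1, 32.7 for Neat1, 20.5 for Gas5, 6.66 for Snhg12, 6.65 for Snhg1, 0.211 for Meg3, 0.165 for Kcnq1ot1, 0.0838 for Rian and 0.00824 for Mirg. Neighbours in this order whose ranges overlapped were Neat1 and Gas5, Snhg12 and Snhg1, Meg3 and Kcnq1ot1, and Kcnq1ot1 and Rian, and the range of Snhg12 lay within that of Snhg1. The exon lengths join all listed isoforms (GENCODE M21), which can lower the level per kilobase of RNAs with many exon records, such as Gas5 (55) and Snhg1 (44). Kcnq1ot1 is listed as 1 exon of 93092 bases, and how much of that length the libraries cover was not tested. Mirg had 0 to 8 counts in any library, at which depth only large differences could have been detected.

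**Figure D1:**
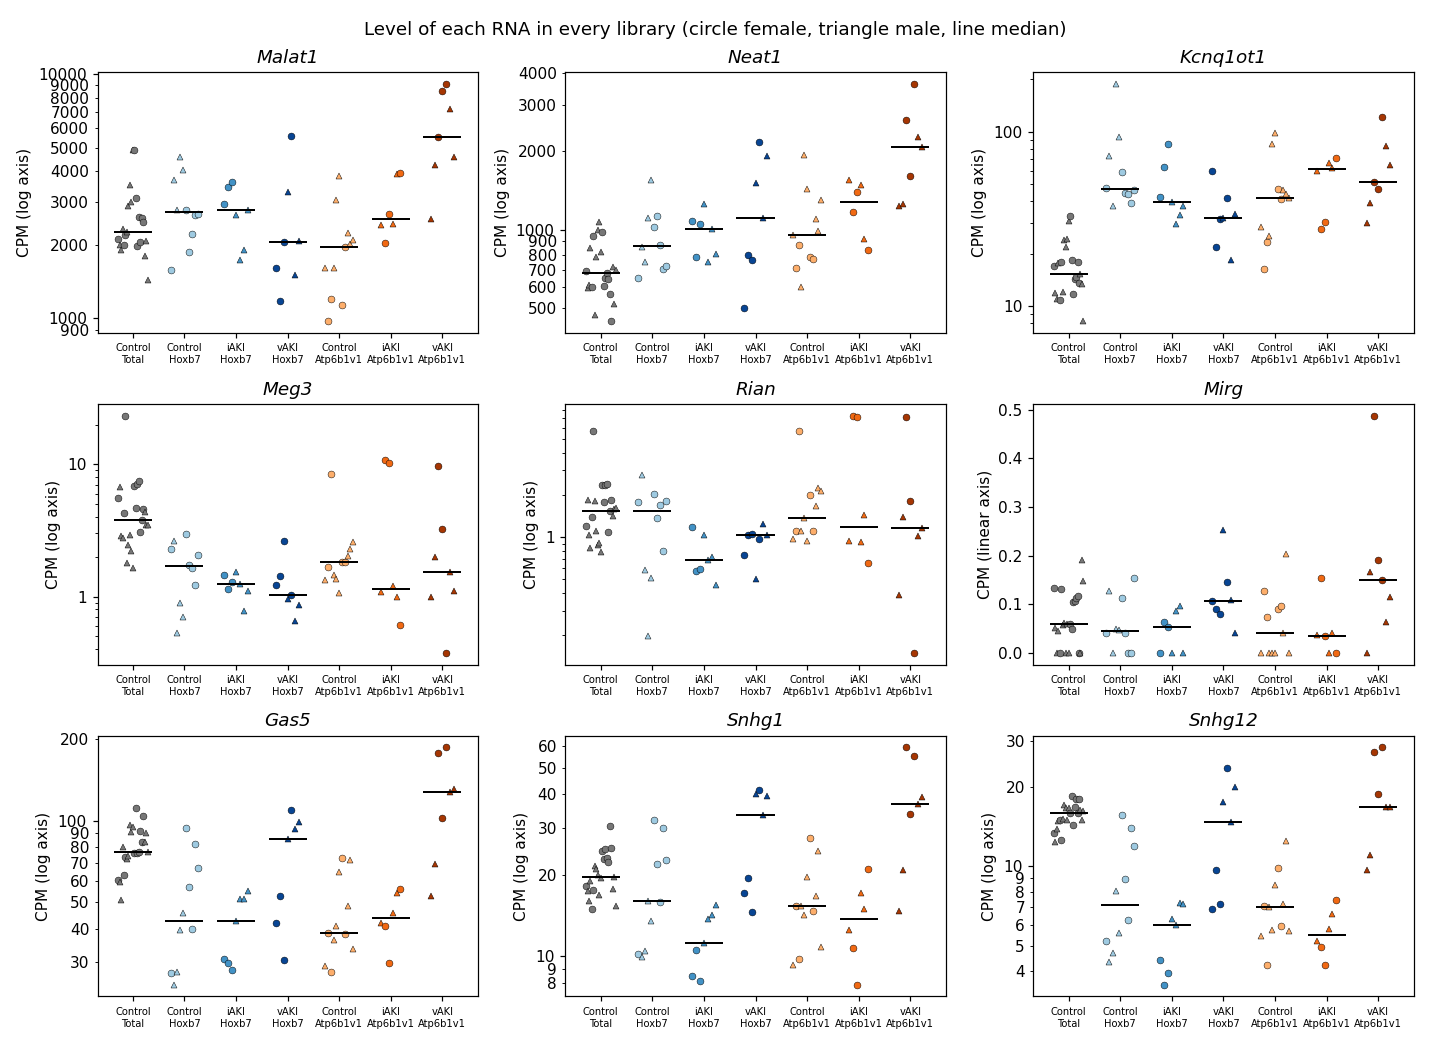
Level of each RNA (CPM, log axis except for Mirg) in each of the 69 libraries by group, with females as circles, males as triangles and the group median as a line. Kcnq1ot1 lay at 37.8 to 189 CPM in control Hoxb7 pulldowns and at 8.25 to 32.8 CPM in total RNA, and Snhg12 lay at medians of 7.15 and 16.0 CPM.

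Pulldown and total RNA of control mice were compared first, to ask which of these RNAs were over-represented in RNA made during the 4 hours. Kcnq1ot1 and Neat1 were higher in both pulldowns, Meg3, Gas5 and Snhg12 were lower in both, Malat1 was lower in Atp6b1v1 pulldowns, and Snhg1, Rian and Mirg passed the test in neither. A call is an adjusted p under 0.05 (edgeR quasi-likelihood test, Benjamini-Hochberg over all genes tested, sex in the model). By that rule 5 of 9 passed for Hoxb7 (2 higher, 3 lower) and 6 of 9 for Atp6b1v1 (2 higher, 4 lower), beside 66.6% and 63.8% of all genes tested, so these shares were near the background. The median log2 fold change of all genes was 0.11 in both comparisons. Pulldown and total RNA differ in the cells they come from as well as in the age of the RNA, and these cannot be told apart here, nor can fewer cells of a type and less RNA per cell.

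Kcnq1ot1 had the largest difference. Its level was 8.25 to 32.8 CPM (median 15.4) in the 21 total RNA libraries, 37.8 to 189 CPM (median 47.0) in the 10 control Hoxb7 pulldowns and 16.3 to 98.4 CPM (median 41.97) in the 11 control Atp6b1v1 pulldowns. Every Hoxb7 pulldown lay above every total RNA library, while the Atp6b1v1 pulldowns overlapped them. Fitted log2 fold changes were 1.99 (SE 0.22, adjusted p = 3.46e-11) for Hoxb7 and 1.34 (SE 0.22, adjusted p = 5.29e-07) for Atp6b1v1, or 3.97-fold and 2.53-fold. Kcnq1, the potassium channel gene that encloses it on the other strand (chr7:143106877-143427050, with Kcnq1ot1 at chr7:143213111-143296547, GRCm38.p6), differed by 0.15 (SE 0.10) and 0.04 (SE 0.09) and did not pass. Of 13 genes of the Kcnq1 domain 2 were higher and 7 lower in each pulldown, a share near the 66.6% and 63.8% of all genes that passed. Among the lower ones were Cdkn1c, an inhibitor of cell division (log2 fold changes -2.73 and -2.27), and Cd81, a tetraspanin (-1.97 and -1.81). The part of Kcnq1ot1 in these levels was not tested. Counting used the default settings of HTSeq, which go by strand, but whether the library kit kept strand is not given. Where a kit does not keep it, reads of Kcnq1ot1 and Kcnq1 exons that overlap cannot be told apart.

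Neat1 was at 445 to 1072 CPM (median 679) in total RNA, 654 to 1548 CPM (median 862) in Hoxb7 and 604 to 1940 CPM (median 956) in Atp6b1v1 control pulldowns. The groups overlapped, and the log2 fold changes were 0.46 (SE 0.14, adjusted p = 0.00376) and 0.54 (SE 0.14, adjusted p = 0.000647). For Atp6b1v1 the call was lost in females alone (0.24, adjusted p = 0.26), and for Hoxb7 in mice of 5.5 months alone (0.36, adjusted p = 0.0645). Malat1 was at 1441 to 4913 CPM (median 2256) in total RNA, 1575 to 4592 CPM (median 2731) in Hoxb7 and 976 to 3844 CPM (median 1958) in Atp6b1v1 control pulldowns. Its log2 fold change was 0.20 (SE 0.17, 95% interval -0.14 to 0.54, adjusted p = 0.311) for Hoxb7 and -0.43 (SE 0.18, adjusted p = 0.0314) for Atp6b1v1. The latter was lost in males alone (-0.10, adjusted p = 0.72), against total RNA of the same genotype (-0.32, adjusted p = 0.159) and without the 2 control libraries of highest adrenal genes (-0.39, adjusted p = 0.0687). Females alone gave -0.95 (adjusted p = 0.00148), and the difference between the sexes was not tested. The median of the ratio Neat1 to Malat1 was 0.299 in total RNA, 0.318 in Hoxb7 and 0.594 in Atp6b1v1 control pulldowns. Of 15 mRNAs of paraspeckle and speckle proteins 12 were higher and 2 lower in each pulldown, with Cpsf6, a cleavage factor subunit, at log2 fold changes of 1.34 and 1.25 and Son, a speckle scaffold, at 1.18 and 1.06.

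The snoRNA hosts were not higher in newly made RNA. Gas5 was at 50.9 to 111 CPM (median 77.01) in total RNA, 24.9 to 94.1 CPM (median 42.8) in Hoxb7 and 27.7 to 73.03 CPM (median 38.5) in Atp6b1v1 control pulldowns. Its log2 fold changes were -0.67 (SE 0.17, adjusted p = 0.000622) and -0.74 (SE 0.16, adjusted p = 0.000108), and the first was lost in females alone (-0.36, adjusted p = 0.176) while it stood at -1.17 in males. Snhg12 was at 12.4 to 18.5 CPM (median 16.0) in total RNA, 4.34 to 15.7 CPM (median 7.15) in Hoxb7 and 4.20 to 12.4 CPM (median 7.02) in Atp6b1v1 control pulldowns. The Atp6b1v1 range only touched the lower end of the total RNA range. Its log2 fold changes were -0.88 (SE 0.16, adjusted p = 3.38e-06) and -1.05 (SE 0.15, adjusted p = 5.01e-08). Snhg1 was at medians of 19.7, 16.0 and 15.4 CPM, with log2 fold changes of -0.19 (95% interval -0.49 to 0.11, adjusted p = 0.278) and -0.24 (-0.53 to 0.05, adjusted p = 0.152). Snhg1 stood at a median of 0.242 of Gas5 in total RNA and of 0.376 and 0.348 in the Hoxb7 and Atp6b1v1 control pulldowns.

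Other snoRNA hosts were mostly lower as well: of 14 tested, 2 were higher and 11 lower in Hoxb7 pulldowns (median log2 fold change -0.94) and 1 higher and 11 lower in Atp6b1v1 pulldowns (median -0.92). Snhg8 (-2.04 and -2.16), Snhg18 (-1.70 and -2.10) and Snhg6 (-1.55 and -1.45) fell, and Snhg14, host of the imprinted snoRNA clusters of the Prader-Willi region, rose (1.13 and 1.12). Gas5, Snhg1 and Snhg12 are transcribed from terminal oligopyrimidine starts, as are the mRNAs of ribosomal proteins and translation factors, and of 16 such mRNAs all 16 were lower in both pulldowns, with medians of -2.79 and -2.87 and Rps3 at -2.98 and -3.02. The log2 fold changes of the 3 hosts, -1.05 to -0.19, lay above these medians. Of 16 long-lived mRNAs 15 were lower in each pulldown (medians -2.48 and -2.39). Of 20 short-lived mRNAs, mostly immediate early genes, 8 were higher and 2 lower in Hoxb7 pulldowns (median 0.25) and 6 higher and 3 lower in Atp6b1v1 pulldowns (median -0.03). The lists were not tested against one another.

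The snoRNAs within the 3 hosts have rows of their own: Snord47 in Gas5, Snord22 in Snhg1, and Snora16a, Snora44, Snora61 and Snord99 in Snhg12, with 0 to 117 counts per library. None passed the test in either pulldown against total RNA, with Snord47 at 0.18 (SE 0.24) for both and Snord22 at 0.15 (SE 0.23) for Hoxb7. The libraries were poly(A) selected, and reads of mature snoRNAs and of unspliced host RNA in these rows cannot be told apart. Of the factors of nonsense-mediated decay 8 of 10 were higher and 2 lower in both pulldowns, with the kinase Smg1 at 1.72 and 1.55 and the adaptor Upf3a at -1.13 and -1.05. Of 8 proteins of the snoRNA particles 2 were higher and 5 lower for Hoxb7 and 1 and 5 for Atp6b1v1, with Nop10 at -2.43 and -2.35. Of 16 factors of the nuclear exosome 5 were higher and 5 lower in both, with Zcchc7 at 1.14 and 1.11 and Exosc5 at -1.97 and -2.05.

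**Figure D2:**
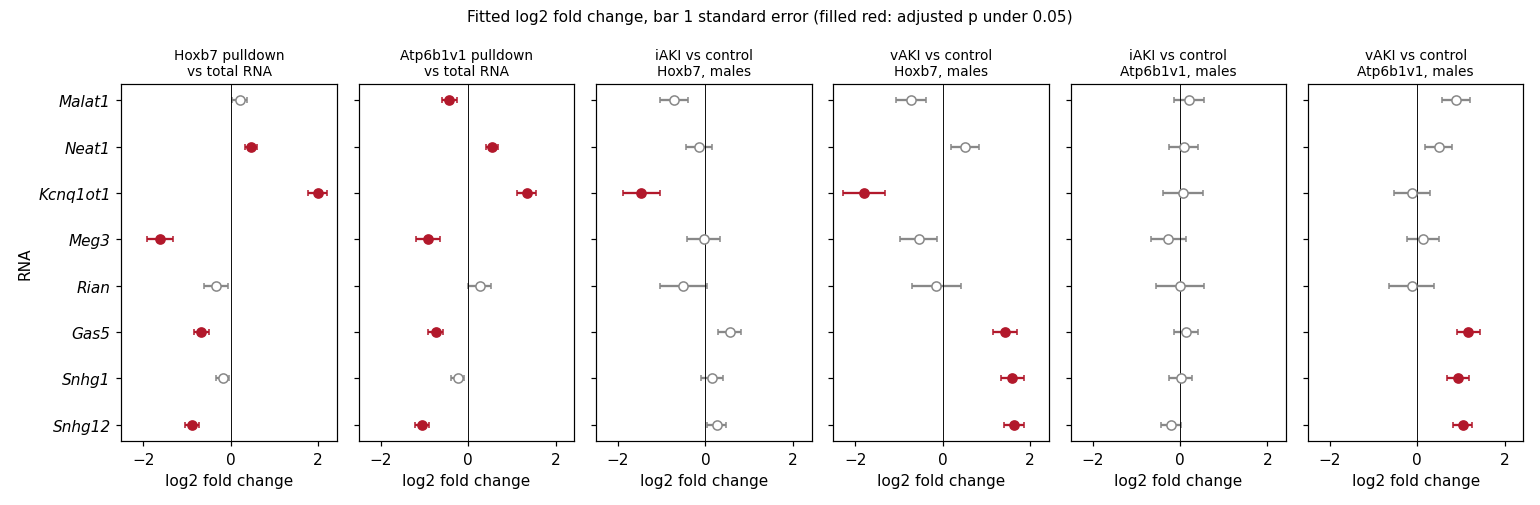
Fitted log2 fold change (x axis) with 1 SE for 8 of the RNAs in both pulldowns against total RNA and in 4 comparisons of injured with control male mice, filled red where the adjusted p is under 0.05. Mirg is left out for its low counts. Gas5, Snhg1 and Snhg12 sit at 0.93 to 1.63 after vAKI and at -0.20 to 0.56 after iAKI.

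Meg3 was the member of the Dlk1-Dio3 locus that differed. It was at 1.64 to 23.4 CPM (median 3.82) in total RNA, 0.533 to 2.95 CPM (median 1.69) in Hoxb7 and 1.07 to 8.40 CPM (median 1.81) in Atp6b1v1 control pulldowns, with log2 fold changes of -1.61 (SE 0.30, adjusted p = 6.82e-06) and -0.91 (SE 0.28, adjusted p = 0.00385). Rian, at medians of 1.53, 1.52 and 1.36 CPM, differed by -0.34 (SE 0.28, 95% interval -0.89 to 0.21) and 0.27 (SE 0.26, -0.25 to 0.78). The median of the ratio Rian to Meg3 was 0.352 in total RNA, 0.777 in Hoxb7 and 0.824 in Atp6b1v1 control pulldowns. Of the 6 other genes of the locus 4 were lower in Hoxb7 and 5 in Atp6b1v1 pulldowns, among them Dlk1, a Notch ligand homologue (-3.43 and -2.09), and Dio3, the enzyme that inactivates thyroid hormone (-1.48 and -0.74). The microRNA and snoRNA rows within Meg3, Rian and Mirg held at most 4 counts in any library.

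Meg3 and Rian were high in the same few libraries, all of females: control total RNA replicate 6 (Meg3 23.4 and Rian 5.69 CPM), control Atp6b1v1 replicate 8 (8.40 and 5.73 CPM), iAKI Atp6b1v1 replicates 2 (10.7 and 7.33 CPM) and 3 (10.3 and 7.20 CPM), and vAKI Atp6b1v1 replicate 3 (9.76 and 7.14 CPM). The summed level of 7 genes of the adrenal cortex was 1316, 741, 871, 1701 and 287 CPM in these 5 libraries, against a median of 15.5 CPM over total RNA libraries and of 26.7 CPM over control Atp6b1v1 pulldowns. Summed genes of the adrenal medulla were at 170, 25.4, 23.9, 30.6 and 32.1 CPM there, with medians of 0.550 CPM over total RNA libraries and 0.703 CPM over control Atp6b1v1 pulldowns. These lists were chosen after the libraries were seen. Over the 48 pulldowns the correlation (r) with the adrenal cortex sum was 0.83 for Meg3 and 0.79 for Rian, and over the 21 total RNA libraries it was 0.78 and 0.67. Without control total RNA replicate 6 and control Atp6b1v1 replicate 8, Meg3 stood at -1.34 (adjusted p = 8.11e-07) and -1.06 (adjusted p = 4.71e-05) against total RNA. Control Hoxb7 replicate 1 had 563 CPM of adrenal cortex genes with Meg3 at 2.30 CPM. Control total RNA replicates 12 and 1 had 370 and 309 CPM with Meg3 at 6.86 and 5.59 CPM. Control total RNA replicates 15 and 14, of 3-month females, had only 16.0 and 46.4 CPM, with Meg3 at 7.48 and 7.12 CPM. The part of adrenal RNA, and of age, in the other values of Meg3 and Rian was not tested.

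**Figure D3:**
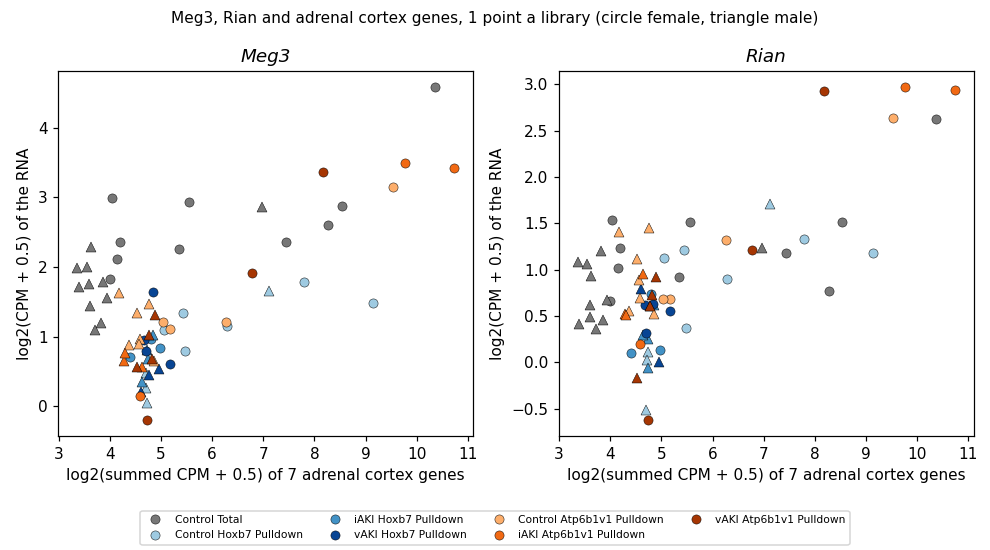
Level of Meg3 and Rian (log2 CPM + 0.5) against the summed level of 7 adrenal cortex genes (log2 scale), 1 point for each of the 69 libraries. The 5 libraries named in the text stand highest, with Meg3 at 8.40 to 23.4 CPM. Control Hoxb7 replicate 1 (563 CPM) and control total RNA replicates 12 (370 CPM) and 1 (309 CPM) lie further right than vAKI Atp6b1v1 replicate 3 (287 CPM), with lower Meg3.

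The 2 control pulldowns were then compared with each other. Only Malat1 passed, lower in Atp6b1v1 than in Hoxb7 pulldowns (log2 fold change -0.63, SE 0.20, adjusted p = 0.0359), beside 9.93% of all genes tested. The call did not hold in males alone (adjusted p = 0.104), in females alone (0.0731), at 5.5 months alone (0.0517), or without the 2 control libraries of highest adrenal genes (0.0746), with the difference at -0.56 to -1.11 over all settings. Kcnq1ot1 differed by -0.65 (SE 0.26, adjusted p = 0.113), Meg3 by 0.70 (SE 0.33, adjusted p = 0.213) and Rian by 0.61 (SE 0.31, adjusted p = 0.267). The 3 snoRNA hosts differed by -0.17 to -0.05, with the widest interval, of Gas5, at -0.45 to 0.31.

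In males, volume depletion was followed by higher levels of all 3 snoRNA hosts in both pulldowns, while in Hoxb7 pulldowns of females alone the log2 fold changes were -0.21 to 0.01 and with both sexes none of the 3 passed. The comparisons of injury used the 22 male pulldowns of 5.5 months. In Hoxb7 pulldowns 4 of 9 RNAs passed (3 higher, 1 lower), beside 35.5% of all genes, and in Atp6b1v1 pulldowns 3 of 9 (all higher), beside 14.6%. In control male Hoxb7 pulldowns Gas5 was at 24.9, 27.6, 39.6 and 45.7 CPM, and after vAKI at 85.8, 93.3 and 99.1 CPM. The groups did not overlap, and the log2 fold change was 1.43 (SE 0.28, adjusted p = 0.000315), or 2.70-fold. Snhg1 was at 9.94, 10.5, 16.1 and 13.5 CPM in controls and at 39.9, 33.4 and 39.4 CPM after vAKI (1.59, SE 0.27, adjusted p = 8.13e-05). Snhg12 was at 4.34, 4.70, 8.05 and 5.58 CPM and at 17.5, 14.7 and 20.0 CPM (1.63, SE 0.22, adjusted p = 9.03e-06). Each vAKI value of the 3 hosts was above each control value.

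The same RNAs were higher in Atp6b1v1 pulldowns. Gas5 was at 29.2, 36.4, 40.8 and 64.8 CPM in controls and at 52.9, 69.2, 128 and 131 CPM after vAKI (log2 fold change 1.16, SE 0.26, adjusted p = 0.00461). Snhg1 was at 9.30, 15.4, 14.2 and 19.6 CPM and at 14.7, 20.8, 36.6 and 38.8 CPM (0.93, SE 0.25, adjusted p = 0.0159), a call lost without control Atp6b1v1 replicate 6 (0.76, adjusted p = 0.0694), vAKI replicate 6 (0.77, 0.0711) or vAKI replicate 7 (0.71, 0.0827). Both RNAs overlapped between the groups. Snhg12 was at 5.44, 7.02, 5.72 and 8.47 CPM and at 9.72, 11.1, 16.8 and 16.8 CPM, without overlap (1.04, SE 0.21, adjusted p = 0.00237). The libraries carry numbers in the labels, and the lower 2 vAKI libraries fall in the range 1 to 40. Within that range the male control and vAKI values of Gas5 were 29.2 and 36.4 against 52.9 and 69.2 CPM, and in the higher range 40.8 and 64.8 against 128 and 131 CPM. All vAKI Hoxb7 libraries fall in the range 1 to 40, where the control males had 24.9 and 27.6 CPM of Gas5. With the range as a covariate the Hoxb7 log2 fold changes were 1.85 (Gas5), 1.92 (Snhg1) and 1.89 (Snhg12).

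The snoRNA rows within the hosts rose too: in Hoxb7 pulldowns all 6 passed after vAKI, from Snord99 at 1.41 to Snord22 at 2.21, and in Atp6b1v1 pulldowns 5 of 6, the exception being Snord47 (0.96, adjusted p = 0.142). Of 14 other snoRNA hosts 7 rose and none fell in Hoxb7 pulldowns (median 1.20), with Snhg10 at 2.17, Snhg3 at 2.04, Snhg7 at 1.61 and Snhg5 at 1.48. In Atp6b1v1 pulldowns 8 rose and none fell (median 0.88), with Snhg10 at 1.45, Snhg7 at 1.41, Snhg5 at 1.12 and Snhg17 at 0.90. Of the 16 terminal oligopyrimidine mRNAs, which share the hosts' kind of start, 2 rose in Hoxb7 pulldowns (Tpt1 0.54 and Rpl7a 0.48) and none passed in Atp6b1v1 pulldowns, with Rplp0 at 0.58 (adjusted p = 0.0734). Of the 20 short-lived mRNAs all 20 rose in Hoxb7 pulldowns (median 3.10) and 19 in Atp6b1v1 pulldowns (median 2.02), with Dusp1, a phosphatase of MAP kinases, at 3.34 and 2.10 and Zfp36, a factor that promotes mRNA decay, at 3.64 and 2.21.

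Beside the hosts, the decay factors of their pathway moved in both directions. In Hoxb7 pulldowns after vAKI 2 of 10 rose and 2 fell, Smg8 at 1.13 and Smg5 at 0.41 against Upf3b at -0.97 and Upf2 at -0.79. In Atp6b1v1 pulldowns Smg8 rose (0.80) and Upf3b fell (-0.55). Of the 8 snoRNA particle proteins the pseudouridine synthase Dkc1 fell in Hoxb7 (-0.83) and Nop58 rose in Atp6b1v1 pulldowns (0.53). Of the genes beside the members, Slc3a2, the amino acid transporter chain next to Snhg1, rose in both (1.46 and 0.50), and Trnau1ap, next to Snhg12, rose in Hoxb7 pulldowns (0.71), whereas Zbtb37, beside Gas5, was at -0.22 (adjusted p = 0.537). Principal cell markers fell after vAKI in Hoxb7 pulldowns (7 of 7, median -1.27, summed level 1222 CPM at the median of all vAKI Hoxb7 libraries against 2325 CPM in controls), and their part in the values of the members was not tested.

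The 3 hosts followed both the short-lived mRNAs and the other snoRNA hosts across libraries. Over the 48 pulldowns r with the mean log2 level of the 20 short-lived mRNAs was 0.93 for Gas5, 0.96 for Snhg1 and 0.98 for Snhg12, and after removal of group and sex means it was 0.93, 0.92 and 0.95. Over the 21 total RNA libraries it was 0.54, 0.81 and 0.52. With the mean log2 level of the other snoRNA hosts, r over the pulldowns was 0.96 (Gas5), 0.95 (Snhg1) and 0.92 (Snhg12). After removal of group and sex means it was 0.93, 0.94 and 0.89, and over total RNA libraries 0.75, 0.66 and 0.80. These are descriptions, since points of a group share treatment and library preparation. The hosts followed one another as closely, with r of 0.95 for Gas5 with Snhg1 and with Snhg12 and 0.97 for Snhg1 with Snhg12. Among 9697 genes of at least 10 CPM on average, those most like Gas5 were Orc6, Srsf3 and U2af1 (r = 0.94 each), most like Snhg1 were Atf4 (0.97), Dusp10 and Snrnp40 (0.96 each), and most like Snhg12 were Jun, Csrnp1 and Ccnl1 (0.97 each).

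**Figure D4:**
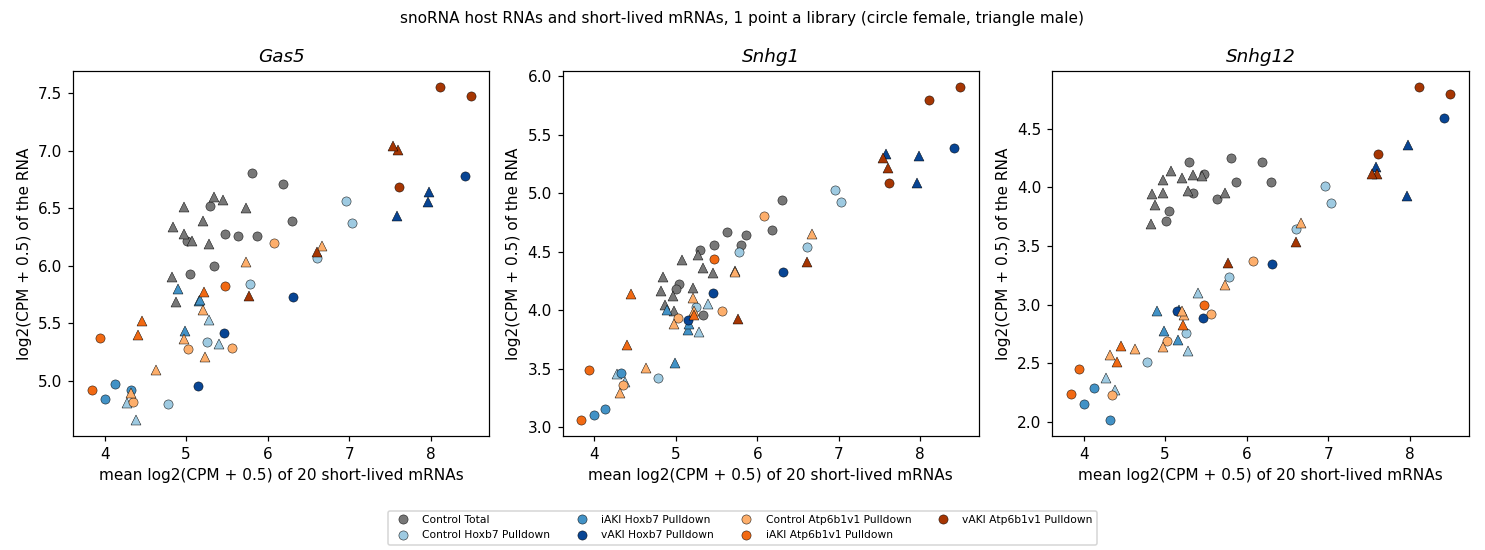
Level of Gas5, Snhg1 and Snhg12 (log2 CPM + 0.5) against the mean log2 level of 20 short-lived mRNAs, 1 point for each of the 69 libraries. Of the 14 vAKI libraries 9 stand at the upper right, with list means of 7.54 to 8.49, while vAKI Hoxb7 replicates 1 to 3 and vAKI Atp6b1v1 replicates 1 and 2 lie among the controls at 5.15 to 6.60, and at like levels of the short-lived mRNAs the total RNA libraries lie above most pulldowns for Gas5 and Snhg12.

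Female mice gave another picture in Hoxb7 pulldowns. Gas5 was at 27.4, 94.1, 82.3 and 66.7 CPM in control females of 5.5 months and at 42.1, 52.7, 30.6 and 109.3 CPM after vAKI, and in females alone the fit gave -0.21 for Gas5, -0.04 for Snhg1 and 0.01 for Snhg12. With both sexes in the fit none of the 3 passed (Gas5 0.53, adjusted p = 0.229; Snhg1 0.71, 0.0931; Snhg12 0.73, 0.073). Cyp27b1, the enzyme that makes active vitamin D, was looked at after its values were seen: it was at 11.0, 20.3 and 17.2 CPM in vAKI Hoxb7 replicates 1 to 3, all female, against 93.3 to 186 CPM in the other 4 vAKI Hoxb7 libraries and 3.74 to 21.3 CPM in controls. Without these 3 libraries and with both sexes, the log2 fold changes were 1.01 (Gas5), 1.19 (Snhg1) and 1.23 (Snhg12). The 3 libraries also held the lowest values of each host in their group, so leaving them out raised these values by construction. Replicate 5 was then the only female vAKI Hoxb7 library, so this fit is no test of a response in females. In Atp6b1v1 pulldowns females alone gave 1.81 (Gas5), 1.56 (Snhg1) and 1.88 (Snhg12), with Gas5 at 177, 102.4 and 187 CPM after vAKI.

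After ischemia none of the 3 hosts passed in males. In Hoxb7 pulldowns 1 of 9 RNAs passed after iAKI, beside 6.13% of all genes, and in Atp6b1v1 pulldowns 0 of 9, beside 8.51% (edgeR, 0 of 9 at an unadjusted p under 0.05 and 0 by DESeq2). Gas5 was at 42.8, 51.4, 51.5 and 55.0 CPM after iAKI in Hoxb7 males (log2 fold change 0.56, 95% interval 0.05 to 1.06, adjusted p = 0.222). In Atp6b1v1 males it was at 41.8, 45.6 and 54.3 CPM (0.13, -0.41 to 0.67, adjusted p = 0.854). Snhg1 differed by 0.14 and 0.01 and Snhg12 by 0.26 and -0.20. In Hoxb7 females of 5.5 months the hosts were lower after iAKI than in most controls. Gas5 was at 31.03, 29.9 and 28.2 CPM against 27.4, 94.1, 82.3 and 66.7 CPM in controls (-1.18, adjusted p = 0.0987). Snhg1 was at 8.43, 10.5 and 8.10 CPM against 10.2, 32.1, 29.9 and 22.8 CPM (-1.39, adjusted p = 0.0692). Snhg12 was at 4.39, 3.55 and 3.94 CPM against 5.22, 15.7, 14.0 and 12.0 CPM, without overlap, and passed (-1.56, adjusted p = 0.0480). Control replicate 1, with the lowest values of each host, is the only one of these 4 controls numbered 1 to 40, as all iAKI Hoxb7 libraries are. In Atp6b1v1 females the differences were -0.08 (Gas5), -0.37 (Snhg1) and -0.31 (Snhg12), and none passed. Of the other snoRNA hosts Snhg17 rose in Hoxb7 pulldowns (0.77) and none passed in Atp6b1v1 pulldowns, and of the 20 short-lived mRNAs Klf6 rose in Hoxb7 pulldowns (0.79).

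The difference between the injuries was tested directly. For vAKI against iAKI 3 of 9 RNAs passed in each pulldown, and they were the 3 hosts. Of all genes 33.3% (Hoxb7) and 29.3% (Atp6b1v1) passed, so these counts were near the background. Gas5 was higher by 0.88 (SE 0.27, adjusted p = 0.0161) and 1.03 (SE 0.28, adjusted p = 0.00806), Snhg1 by 1.45 (SE 0.27, adjusted p = 0.000229) and 0.92 (SE 0.27, adjusted p = 0.0143), and Snhg12 by 1.37 (SE 0.22, adjusted p = 6.34e-05) and 1.23 (SE 0.23, adjusted p = 0.00042). The Snhg1 call in Atp6b1v1 was lost without iAKI replicate 1 (0.78, adjusted p = 0.0848), vAKI replicate 6 (0.75, 0.0529) or vAKI replicate 7 (0.68, 0.0662), and the Gas5 call in Hoxb7 without vAKI replicate 7 (0.83, 0.0564). Most comparisons of injury share control or vAKI libraries, so they are not independent of one another.

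Kcnq1ot1 was lower after both injuries in Hoxb7 males. It was at 72.5, 37.8, 189 and 94.1 CPM in controls, at 39.7, 29.7, 33.5 and 37.8 CPM after iAKI and at 32.3, 18.4 and 33.8 CPM after vAKI. Control replicate 4 stood apart at 189 CPM, and control replicate 3, at 37.8 CPM, lay within the iAKI range. The log2 fold changes were -1.47 (SE 0.43, adjusted p = 0.0416) and -1.80 (SE 0.48, adjusted p = 0.00488). The call for iAKI held without 2 of the 8 libraries compared and was lost without each of the other 6 (-1.74 to -0.96, largest adjusted p = 0.181), with the library range as a covariate (-0.72, adjusted p = 0.0911) and with both sexes (-0.60, adjusted p = 0.386). In females alone it was 0.42 (adjusted p = 0.561). The call for vAKI held without each of 7 libraries in turn (-2.07 to -1.27) and was lost in females alone (-0.31, adjusted p = 0.872). In Atp6b1v1 males the values were 28.5, 25.4, 84.97 and 98.4 CPM in controls, 59.9, 66.6 and 61.9 CPM after iAKI and 30.0, 38.9, 83 and 64.3 CPM after vAKI, with log2 fold changes of 0.07 (SE 0.45) and -0.13 (SE 0.42).

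The level of Kcnq1ot1 moved with that of Rn45s, the precursor of ribosomal RNA, across pulldowns. Rn45s was the gene most like it (r = 0.86 over 48 pulldowns, 0.85 after removal of group and sex means), followed by Lars2 and Mir6236 (0.84 each), and over the 21 total RNA libraries r with Rn45s was 0.04. In the Hoxb7 males Rn45s was also lower after iAKI (-2.06, SE 0.59, adjusted p = 0.0398) and after vAKI (-1.93, SE 0.65, adjusted p = 0.0243), as was Mir6236 (-2.34, adjusted p = 0.0431, and -2.78, adjusted p = 0.00733). Against total RNA the 2 went apart, Rn45s being lower in pulldowns (-0.84 for Hoxb7 and -1.75 for Atp6b1v1) where Kcnq1ot1 was higher. The largest Rn45s level of a pulldown, 16300 CPM, was in a control Hoxb7 male. The part of Rn45s in the values of Kcnq1ot1 was not tested. Kcnq1 fell after iAKI (-0.88, adjusted p = 0.00145) and after vAKI (-0.43, adjusted p = 0.0323) in Hoxb7 pulldowns.

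**Figure D5:**
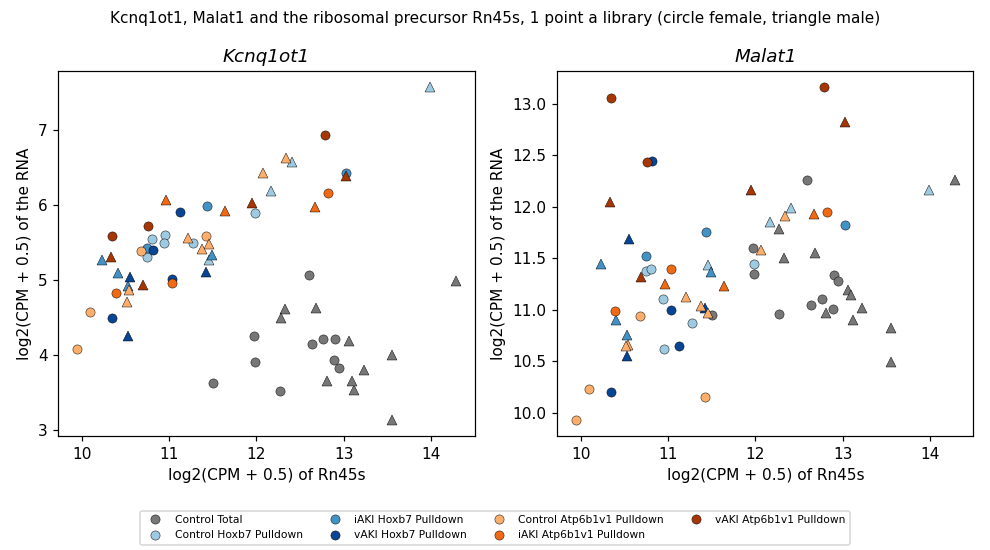
Level of Kcnq1ot1 and Malat1 against that of Rn45s (all log2 CPM + 0.5), 1 point for each of the 69 libraries. Kcnq1ot1 rises with Rn45s in the pulldowns (r = 0.86) and not in total RNA (r = 0.04), and Malat1 has r = 0.53 and -0.02.

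Malat1 and Neat1 passed after vAKI in Atp6b1v1 females and not in males, but the sex difference itself did not pass (Malat1 1.68, adjusted p = 0.400, and Neat1 1.27, adjusted p = 0.529). In Atp6b1v1 males Malat1 was at 1610, 1608, 3055 and 3844 CPM in controls and at 2554, 4233, 7228 and 4592 CPM after vAKI, with a log2 fold change of 0.89 (SE 0.32, adjusted p = 0.0626) that missed the threshold and passed by DESeq2 (adjusted p = 0.0265). In females of this genotype it was at 976, 1198, 1139 and 1958 CPM in controls and at 5551, 8520 and 9150 CPM after vAKI, without overlap (2.56, adjusted p = 0.00169). Neat1 was at 0.49 (SE 0.31, adjusted p = 0.313) in males and 1.75 (adjusted p = 0.00447) in females. With both sexes in the fit Malat1 stood at 1.66 (adjusted p = 0.000126) and Neat1 at 1.10 (adjusted p = 0.00164). In Hoxb7 males Malat1 was at 3690, 2777, 4592 and 4064 CPM in controls and 3290, 1504 and 2073 CPM after vAKI (-0.72, SE 0.35, adjusted p = 0.115), and Neat1 differed by 0.51 (SE 0.33, adjusted p = 0.249). Over pulldowns Malat1 and Neat1 had r = 0.67 with each other, and the genes most like them were Hoxb5 and Map3k12 (0.69 each) and 3110056K07Rik (0.66) for Malat1, and Taf15 (0.82), Carkd and Gyltl1b (0.74 each) for Neat1.

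Meg3 and Rian passed in none of the injury comparisons. Meg3 differed in males by -0.04 and -0.55 after iAKI and vAKI in Hoxb7 and by -0.27 and 0.13 in Atp6b1v1 pulldowns, with SE of 0.37 to 0.42, and Rian by -0.50, -0.14, 0.00 and -0.13, with SE of 0.52 to 0.56. Control Hoxb7 replicate 2, the male control with 138 CPM of adrenal cortex genes, had Meg3 at 2.65 CPM against 0.533 to 0.889 CPM in the other 3. Genes of the same locus did move: Dio3 and its antisense partner Dio3os rose after vAKI in Hoxb7 (1.73 and 1.23) and fell in Atp6b1v1 pulldowns (-1.95 and -1.94), and the same limit of strand holds for this pair. The genes most like Meg3 were Star (r = 0.82), Cyp11b1 (0.81) and Cacna2d1 (0.79), and those most like Rian were Cacna2d1 (0.79), Star (0.78) and Cyp11b1 (0.77). Mirg was at 0 counts in all 4 control Atp6b1v1 males and at 0 to 5 counts in the 4 after vAKI, and its fitted value is not given for that reason. Over the pulldowns it was most like Epm2aip1 (0.67), Bnip2 and Arhgap28 (0.66 each), which at these counts is no finding.

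Finally, the responses were compared between drivers and between sexes. None of the 9 passed in the difference of iAKI responses between Atp6b1v1 and Hoxb7 pulldowns, beside 7.79% of all genes (edgeR, 1 at an unadjusted p under 0.05, 0 by DESeq2), and none in that of vAKI responses, beside 4.2% (edgeR, 2 at an unadjusted p under 0.05, and 1, Malat1, by DESeq2). The vAKI response of Malat1 was higher in Atp6b1v1 pulldowns by 1.61 (SE 0.47, adjusted p = 0.0536). The difference for the hosts was -0.27 (Gas5, 95% interval -1.01 to 0.47), -0.66 (Snhg1, -1.38 to 0.05) and -0.59 (Snhg12, -1.19 to 0.01). With the library range as a covariate these 3 and Malat1 passed, at -0.73 (Gas5, adjusted p = 0.0306), -1.04 (Snhg1, 0.0170), -0.88 (Snhg12, 0.0204) and 1.26 (Malat1, 0.0148). Between sexes 4 of 9 passed for iAKI in Hoxb7 pulldowns, beside 10.5% of all genes, and 3 of 9 for vAKI, beside 16%. After iAKI the female minus male difference was -1.75 for Gas5, -1.55 for Snhg1, -1.83 for Snhg12 and 1.88 for Kcnq1ot1, with adjusted p of 0.0255, 0.0456, 0.0147 and 0.0476. After vAKI it was -1.65, -1.64 and -1.62 for the hosts, with adjusted p of 0.0227, 0.0231 and 0.0153. The iAKI and vAKI differences use the same control libraries, so they are not independent. Without vAKI Hoxb7 replicates 1 to 3, which left replicate 5 as the only female vAKI Hoxb7 library, assumed to vary like the other groups, the values were -0.74 (Gas5), -0.79 (Snhg1) and -0.61 (Snhg12), and with 1 library in that arm their p-values say nothing of whether the difference holds. Leaving out 1 library at a time kept the iAKI calls in 11 (Gas5), 3 (Snhg1), 14 (Snhg12) and 4 (Kcnq1ot1) of 15 fits, with adjusted p up to 0.0937, 0.142, 0.0636 and 0.177, and the vAKI calls in 8 (Gas5), 9 (Snhg1) and 15 (Snhg12) of 15. Calls of all 4 for iAKI were lost without iAKI Hoxb7 replicate 3, and those of Gas5 and Snhg1 for vAKI when any 1 of vAKI Hoxb7 replicates 1, 3 and 7 and control Hoxb7 replicates 3, 6 and 9 was left out, and that of Gas5 also without control Hoxb7 replicate 2. In Atp6b1v1 pulldowns no gene passed the sex difference for iAKI (0% of all genes by edgeR, 676 at an unadjusted p under 0.05, 1 by DESeq2) or for vAKI (0%, 1756 and 44), and of the 9 RNAs 0 and 3 had an unadjusted p under 0.05 and none passed by DESeq2.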

How the data were processed

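RNA-Seq counts of 69 kidney libraries were analysed. The deposited values are raw read counts per gene symbol, not normalized. To make them, the authors isolated total RNA, pulled down biotinylated 4-TU RNA where a library is labelled Pulldown, selected poly(A) RNA, and used the Illumina TruSeq kit. Per the submitters' processing notes and the methods, CASAVA 1.8.2, Trimmomatic 0.36, STAR 2.5.3a (mm10) and HTSeq 0.6.1p2 at default settings followed. HTSeq at default settings drops reads that overlap more than 1 gene, which can lower the counts of overlapping genes. Default settings count by strand. The annotation and whether the kit kept strand are not given in the sources used here.

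Groups, sex and age came from the labels. Genes with at least 2 counts in all (21175) were fitted in R 4.3.3 with edgeR 4.0.16 (TMM, quasi-likelihood test, limma 3.58.1), on 42 controls with sex as covariate, on 22 male pulldowns of 5.5 months for injury, and on 43 pulldowns of that age for sex differences. Adjusted p-values are Benjamini-Hochberg values over all genes tested. DESeq2 1.42.0, other filters, scalings, samples and covariates were alternatives. CPM use library totals times TMM factors, and log2 values of CPM add 0.5. Scripts were tested on simulated data. Libraries held 12618062 to 30305464 counts, and at this depth counting error matters for Mirg and the snoRNA rows.

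The members, gene lists and named genes (every member, the adjacent genes, up to 4 genes of lowest adjusted p per list, and the 3 most correlated genes per member) were chosen with earlier results of these data known. The adrenal gene lists, the motifs, Cyp27b1 and the alternatives that leave out libraries for these genes were added after the data were seen. There were 0 pairs of libraries with identical counts. The result of 1 adjacent gene is not reported here.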

Additional observations from a re-analysis of the deposited data

Results flagged for a closer look

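Each RNA was checked in each group of 4 to 10 libraries, and 6 of 45 such checks found a library far from the rest. Chance flags about 1 in 20 of independent checks of normal values. These checks share libraries, pool the sexes and include the low counts of Mirg, so that rate may not hold. Control total RNA (21 libraries) and control Atp6b1v1 pulldowns (11) were not checked, so Meg3 at 23.4 CPM in total RNA replicate 6 is not covered. Meg3 was at 2.61 CPM in vAKI Hoxb7 replicate 3 (next 1.44 CPM) and at 9.76 CPM in vAKI Atp6b1v1 replicate 3 (next 3.26 CPM), and Rian was at 7.14 CPM in the latter (next 1.82 CPM). Summed adrenal cortex genes were at 28.1 CPM in vAKI Hoxb7 replicate 3, within its group's range, and at 287 CPM in vAKI Atp6b1v1 replicate 3, the highest of its group. Mirg was at 0.154 CPM in iAKI Atp6b1v1 replicate 2 (next 0.0410 CPM) and at 0.488 CPM in vAKI Atp6b1v1 replicate 3 (next 0.192 CPM), which stand for 5 and 8 counts. Kcnq1ot1 was at 189 CPM in control Hoxb7 replicate 4 (next 94.1 CPM).

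The injury responses of Hoxb7 pulldowns differed between females and males for several members, by a test of the difference itself. For iAKI the female minus male log2 difference was -1.75 (Gas5), -1.55 (Snhg1), -1.83 (Snhg12) and 1.88 (Kcnq1ot1). For vAKI it was -1.65 (Gas5), -1.64 (Snhg1) and -1.62 (Snhg12). The control females of 5.5 months held Gas5 at 27.4, 66.7, 82.3 and 94.1 CPM, the lowest in a library numbered 1 to 40 in the labels and the others in libraries numbered higher, and all injured Hoxb7 libraries are numbered 1 to 40. With the library range as a covariate the difference was -1.63 (Gas5), -1.41 (Snhg1), -1.72 (Snhg12) and 1.69 (Kcnq1ot1) for iAKI, and -1.53 (Gas5), -1.50 (Snhg1) and -1.52 (Snhg12) for vAKI. Without vAKI Hoxb7 replicates 1 to 3 the values for vAKI were -0.74 (Gas5), -0.79 (Snhg1) and -0.61 (Snhg12), with 1 female vAKI library left, so the loss of these calls says nothing of their stability.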

How the results depend on the processing

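The value compared is the number of the 9 RNAs that passed. Against total RNA it went from 5 (Hoxb7) and 6 (Atp6b1v1) to 2 and 2 when a log2 fold change of at least 1 was also asked for, which also took Atp6b1v1 against Hoxb7 from 1 to 0. That last count was 0 in males only, females only, at 5.5 months only and without the 2 control libraries of highest adrenal genes. Using only the groups compared gave 2 for iAKI Hoxb7 (1 in all male pulldowns) and 1 for vAKI Atp6b1v1 (3). Both sexes gave 0 for iAKI Hoxb7, 1 for vAKI Hoxb7 (4), 6 for vAKI Atp6b1v1, 6 for vAKI against iAKI in Atp6b1v1 (3) and 1 for the driver difference of vAKI (0). Females only gave 0 for vAKI Hoxb7, 6 for vAKI Atp6b1v1, 1 for vAKI against iAKI in Hoxb7 (3) and 5 in Atp6b1v1, and turned the log2 fold changes of Kcnq1ot1 after iAKI (0.42), Gas5 after vAKI (-0.21) and Snhg1 after vAKI (-0.038) in Hoxb7 pulldowns. The library range as a covariate gave 2 and 4 for the driver differences of iAKI and vAKI (0 and 0), 25 males (3-month controls included) gave 1 and 1, and DESeq2 gave 1 for vAKI. No filter gave 2 for the sex difference of iAKI in Hoxb7 (4). Leaving out vAKI Hoxb7 replicates 1 to 3, an alternative chosen after seeing the data, gave 0 for that of vAKI (3), but left 1 female vAKI library, so this count says nothing of stability. The cause of these changes was not tested. filterByExpr left Mirg out.

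Leaving out each library in turn gave 0 to 1 for iAKI Hoxb7, 4 to 5 for vAKI Hoxb7, 2 to 5 for vAKI Atp6b1v1, 2 to 3 and 2 to 4 for vAKI against iAKI in Hoxb7 and Atp6b1v1, 0 to 1 for the driver difference of vAKI, and 0 to 4 and 1 to 3 for the sex differences of iAKI and vAKI in Hoxb7. It gave 0 throughout for iAKI Atp6b1v1, the driver difference of iAKI and both sex differences in Atp6b1v1. Among other settings 299 log2 fold changes of single RNAs kept direction and call, 37 lost the call and 3 turned, and with 1 library left out at a time 153 kept both, 54 lost the call and 0 turned.

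Groups share replicate numbers in the labels. Same-numbered libraries did not deviate together (12 pairs, r = -0.53 to 0.38, 3 over 0.1), so the numbers were not taken as a pairing. This check covered male pulldowns only, so it does not bear on pulldowns paired with total RNA. With the replicate block the count was 2 for Atp6b1v1 against Hoxb7, 1 for the driver difference of vAKI, and 0 and 0 for the sex differences of iAKI and vAKI in Hoxb7. Depth limits Mirg, with 0 to 8 counts per library.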

Other observations

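Other long noncoding RNAs moved in both directions in newly made RNA. Of 15 tested, 7 were higher and 7 lower in Hoxb7 pulldowns and 7 and 6 in Atp6b1v1 pulldowns. Tug1 (log2 fold changes 1.31 and 1.29) and Ftx, which lies at the X inactivation centre (1.01 and 0.94), were higher in both, and Dleu2 was lower in both (-0.73 and -0.61). After vAKI 2 rose and 3 fell in Hoxb7 males, with Peg13 at 0.63, Firre at -0.59 and Jpx at -1.13, and none of the 15 passed in Atp6b1v1 males, where Peg13 was at 0.31 (edgeR, adjusted p = 0.0529).

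Within the Kcnq1 domain Tssc4 rose after vAKI in both pulldowns (1.56 and 0.90), and Phlda2 rose in Hoxb7 pulldowns (1.19). Among paraspeckle and speckle proteins Srsf2 rose (0.82) and Nono fell (-0.64) in Hoxb7 males after vAKI, and Pspc1 and Sfpq rose in Atp6b1v1 males (0.45 and 0.42).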
